A study of Mus musculus with 7 samples.

Results

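The 35 genes described here encode NRF2 (gene symbol Nfe2l2), its regulators, and the enzymes of the glutathione, thioredoxin, peroxidase, superoxide dismutase and pentose phosphate systems. They were chosen by gene symbol from a count table of 26130 genes, with ferritin and heme genes left out, and all 35 were found in it. Of these, 34 passed the filter on low counts and were tested. The list was chosen with earlier results of these data known, so counts of its genes called are a description and not a test. The cells were lung myeloid cells sorted as Lyz2GFP+CD11b+Ly6C+Ly6G- from mice that carried an Fth1-mScarlet reporter of ferritin heavy chain and a Lyz2GFP reporter, in every group. The first group was Fth1-high cells 3 days after 20 µg of lipopolysaccharide (LPS, an endotoxin of E. coli 0111:B4) in 50 µl was placed in the trachea (LPS Fth1-high, n = 3). The second was Fth1-low cells under the same treatment (LPS Fth1-low, n = 2). The third was Fth1-low cells of untreated mice (untreated, n = 2). The labels give neither age nor sex, nor whether a replicate was 1 mouse or a pool. The p-values below therefore measure the spread among these libraries. That spread may be technical in part, though libraries of a group differed in sex-linked genes (values below). No untreated Fth1-high sample was analysed here, so in LPS Fth1-high against untreated cells the effects of treatment and gate cannot be told apart. Where 1 library is left out it is named High 1 to High 3, Low 1 or Low 2, or Untreated 1 or Untreated 2, after its group and replicate number.

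NRF2 is a transcription factor that is held in the cytoplasm and sent for degradation by KEAP1. Electrophiles and oxidants modify KEAP1, NRF2 then accumulates, pairs with a small MAF protein and binds antioxidant response elements near genes for glutathione synthesis, thioredoxin recycling, NADPH supply and detoxification. BACH1 pairs with the same MAF proteins and represses many of those genes. In macrophages and monocytes the pathway is known for limiting oxidant damage and inflammatory gene expression. Because NRF2 is controlled mainly through protein stability, its mRNA does not report its activity, and the values below are mRNA levels only.

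The antioxidant response element core, TGACNNNGC, was searched on both strands of RefSeq promoters (GRCm38.p6, 250 bases before to 50 after each start), which were matched for 31 of the 35 genes, with 40 promoters in all because some genes have several starts. It was present in 12 of the 31, against 14.0% of 27025 genes in the whole table. The AP-1 motif, TGANTCA, which can share letters with the element, was present in 6 of 31, against 8.97% of all genes. The windows below lie upstream of the start and are shown because their genes differ in how their mRNA behaved. They are written 5′ to 3′ on the plus strand for Gclm, Txnrd1, Prdx1, Srxn1, Glrx and Sod1 and on the minus strand for Mafg and G6pdx, with the matched letters in capitals. The first 6 belong to genes that rose in LPS Fth1-high against untreated cells, G6pdx fell, and Sod1 was not called.
Gclm, chr3:122245398-122245456: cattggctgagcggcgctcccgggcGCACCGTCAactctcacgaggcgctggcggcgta
Txnrd1, chr10:82859089-82859147: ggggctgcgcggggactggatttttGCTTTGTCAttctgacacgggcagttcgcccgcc
Prdx1, chr4:116685441-116685499: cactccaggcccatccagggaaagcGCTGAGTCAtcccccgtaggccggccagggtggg
Mafg, chr11:120633736-120633794: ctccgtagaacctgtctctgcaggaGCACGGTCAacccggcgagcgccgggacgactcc
Srxn1, AP-1 match, chr2:152105454-152105510: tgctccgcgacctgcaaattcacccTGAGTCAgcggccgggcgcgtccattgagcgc
Glrx, AP-1 match, chr13:75839762-75839818: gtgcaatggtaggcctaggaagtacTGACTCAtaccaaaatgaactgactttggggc
G6pdx, chrX:74428904-74428962: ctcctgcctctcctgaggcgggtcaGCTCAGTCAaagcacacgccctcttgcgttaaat
Sod1, chr16:90220681-90220739: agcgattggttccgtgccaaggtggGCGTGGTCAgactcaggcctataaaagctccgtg
In the Prdx1 window the element and an AP-1 match share their letters. By the call in LPS Fth1-high against untreated cells, the element was in 5 of 13 genes that rose, 1 of 7 that fell and 5 of 10 that were not called. A match is a description of letters, and the lack of one says only that those letters are not in this window.

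Polyadenylated RNA was sequenced in 7 libraries. LPS Fth1-high libraries held 15285553 to 27997007 counts, LPS Fth1-low 637787 and 19001523, and untreated 22995442 and 10459703. Low 1 was thus 16.4 to 43.9 times shallower than the others, 19.5% of its counts were ribosomal RNA, and 3 of its counts were worth 5.02 CPM (counts scaled to library size, with TMM factors). Log2 CPM correlated at 0.960 to 0.980 between LPS Fth1-high replicates, 0.863 between LPS Fth1-low and 0.964 between untreated replicates. All 10 listed monocyte and macrophage markers were present, at a sum of 13509 to 20974 CPM in every library, but they moved in both directions. In LPS Fth1-high against LPS Fth1-low cells Ccr2 fell 5.42-fold (adjusted p = 0.00568), while Adgre1 rose 2.53-fold (adjusted p = 0.0341) and Cd68 rose 2.08-fold (adjusted p = 0.0144). Against untreated cells 5 of the 10 rose and 2 fell, where 12.4% of all genes were called higher and 11.9% lower. Ly6c2 was 3.43-fold higher (adjusted p = 0.00387) and Cx3cr1 6.05-fold lower (adjusted p = 0.000329). Ly6g, which defines neutrophils, reached 2 counts at most. Summed neutrophil markers, led by Mmp8, were 17.5 to 39.7 CPM in LPS Fth1-high, 78.7 and 203 CPM in LPS Fth1-low and 88.5 and 80.6 CPM in untreated cells. Dendritic cell markers summed to 11.2 to 17.6, 68.6 and 67.7, and 54.8 and 46.0 CPM in the same order. Alveolar macrophage markers summed to 488 to 1893, 3321 and 5915, and 1922 and 1711 CPM, most of it Chil3. Their members also went both ways in LPS Fth1-high against untreated cells, with Marco 7.09-fold higher (adjusted p = 0.00862) at up to 14.4 CPM and Ear2 53.0-fold lower (adjusted p = 3.03e-05), while Siglecf was at most 5.02 CPM. Epithelial markers summed to 13.7 to 76.1, 21.8 and 122, and 781 and 3.82 CPM. Endothelial markers summed to 34.9 to 144, 172 and 120, and 314.5 and 66.8 CPM. Fibroblast markers summed to 7.23 to 57.1, 127 and 19.7, and 27.9 and 5.87 CPM. Those of T, B and NK cells summed to 5.08 to 27.3, 73.7 and 19.0, and 63.2 and 23.3 CPM. Within every group, libraries differed in the sex-linked genes Xist and Ddx3y. Xist was 34.8, 1.95 and 363 CPM in LPS Fth1-high, 72.0 and 176 CPM in LPS Fth1-low and 3.58 and 274 CPM in untreated libraries. Ddx3y was 78.3, 68.8 and 1.66, 68.6 and 37.2, and 97.9 and 0.186 CPM in the same order. High 1, Low 1 and Low 2 had both genes well above the lowest value of each, so they held RNA of both sexes. Whether they were pools of mice was not tested. Leaving out 1 library therefore also changes this balance, and its part in the results was not tested. Fth1, the gene behind the gate, was 13231, 21000 and 20473 CPM in LPS Fth1-high, 2970 and 4825 CPM in LPS Fth1-low and 1786 and 1672 CPM in untreated cells. In bulk samples such as these, fewer cells of a type and less RNA per cell cannot be told apart, and the part of the marker differences in the results below was not tested.

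The 35 genes together took 0.639% to 0.980% of the counts of a library. Against LPS Fth1-low cells, LPS Fth1-high cells had 10 genes higher and 1 lower of the 34 tested, where 3.68% of all 13665 genes tested were called higher and 4.57% lower (edgeR quasi-likelihood test, adjusted p below 0.05). The median log2 difference was 0.46 over the 34 genes and 0.04 over all genes. Against untreated cells, LPS Fth1-low cells had 6 higher and 0 lower, with 2.99% and 0.629% of all genes called, and a median of -0.07 against -0.05. Against untreated cells, LPS Fth1-high cells had 15 higher and 8 lower, with 12.4% and 11.9% of all genes called, and a median of 0.54 against 0.03. The 3 comparisons share libraries, so their values stand side by side. Slc7a11, Srxn1, Sod2 and Glrx were higher in all 3. Gclm, Prdx6, Abcc1, Sqstm1, Esd and Aifm2 were higher in LPS Fth1-high cells against both others, and Bach1 was lower against both. Txnrd1 and Txn1 were higher in both LPS groups than in untreated cells. Without Low 1 the higher calls against LPS Fth1-low cells came to 4, without Low 2 to 5, and without High 2 to 6. Without either untreated library the higher calls of LPS Fth1-low cells came to 2, and without Untreated 1 the lower calls of LPS Fth1-high cells came to 4. No called value of these genes changed sign when a library was left out. Groups did not overlap for 17 genes above and 6 below in LPS Fth1-high against LPS Fth1-low cells (24.2% and 17.1% of all genes), for 12 above and 10 below in LPS Fth1-low against untreated cells (16.3% and 23.2%), and for 18 above and 10 below in LPS Fth1-high against untreated cells (30.3% and 27.8%).

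**Figure D1:**
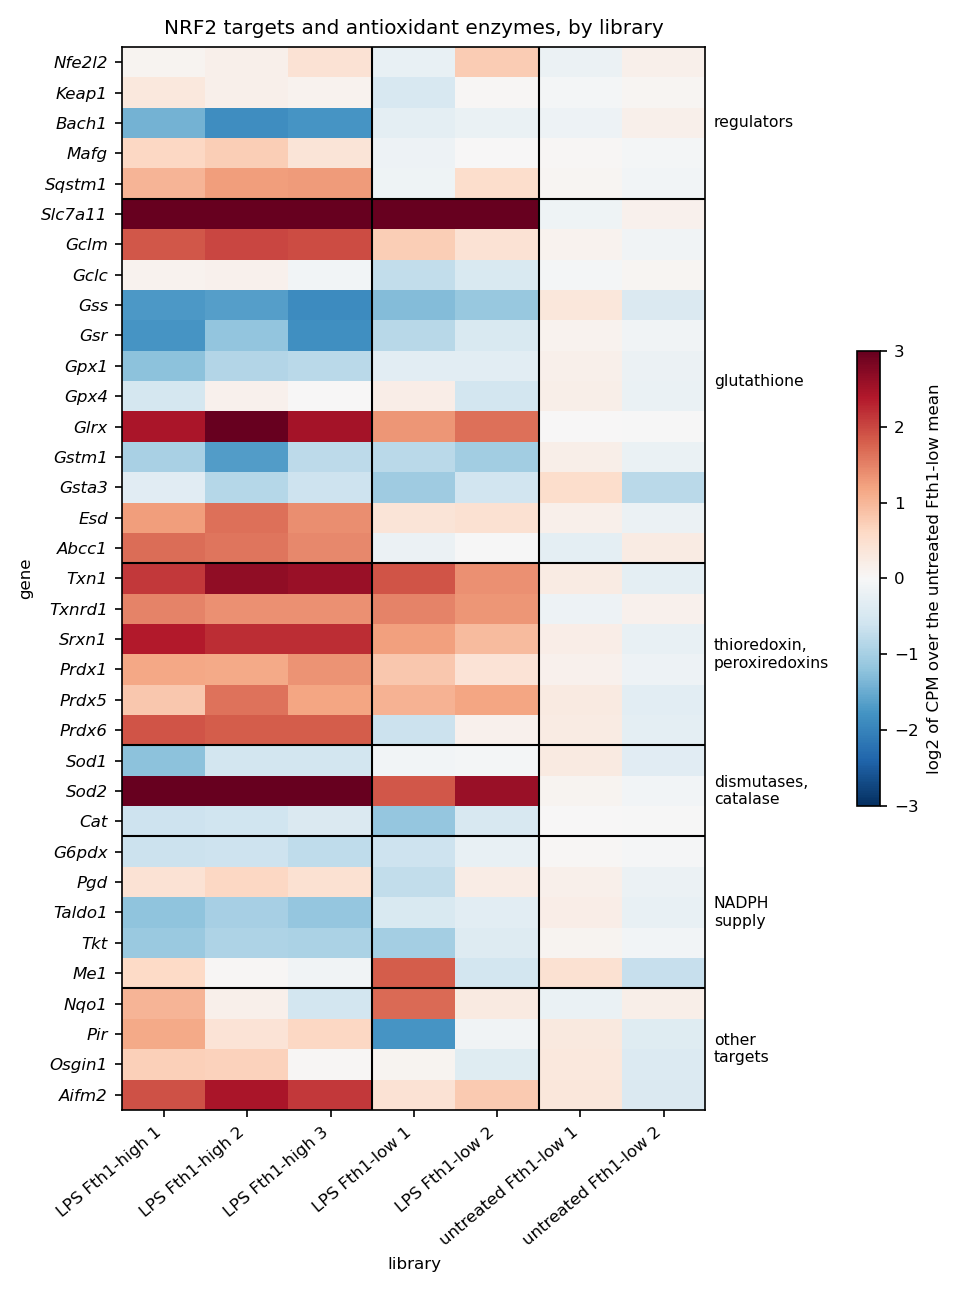
Log2 of CPM plus 0.5 for each of the 35 genes, as the difference from its mean over the untreated libraries, with colours capped at 3 in either direction, for LPS Fth1-high, LPS Fth1-low and untreated libraries from left to right. Sod2, Glrx and Srxn1 step down from left to right, Slc7a11 is past the cap in every LPS library, and Gsr, Gss and Taldo1 step up.

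**Figure D2:**
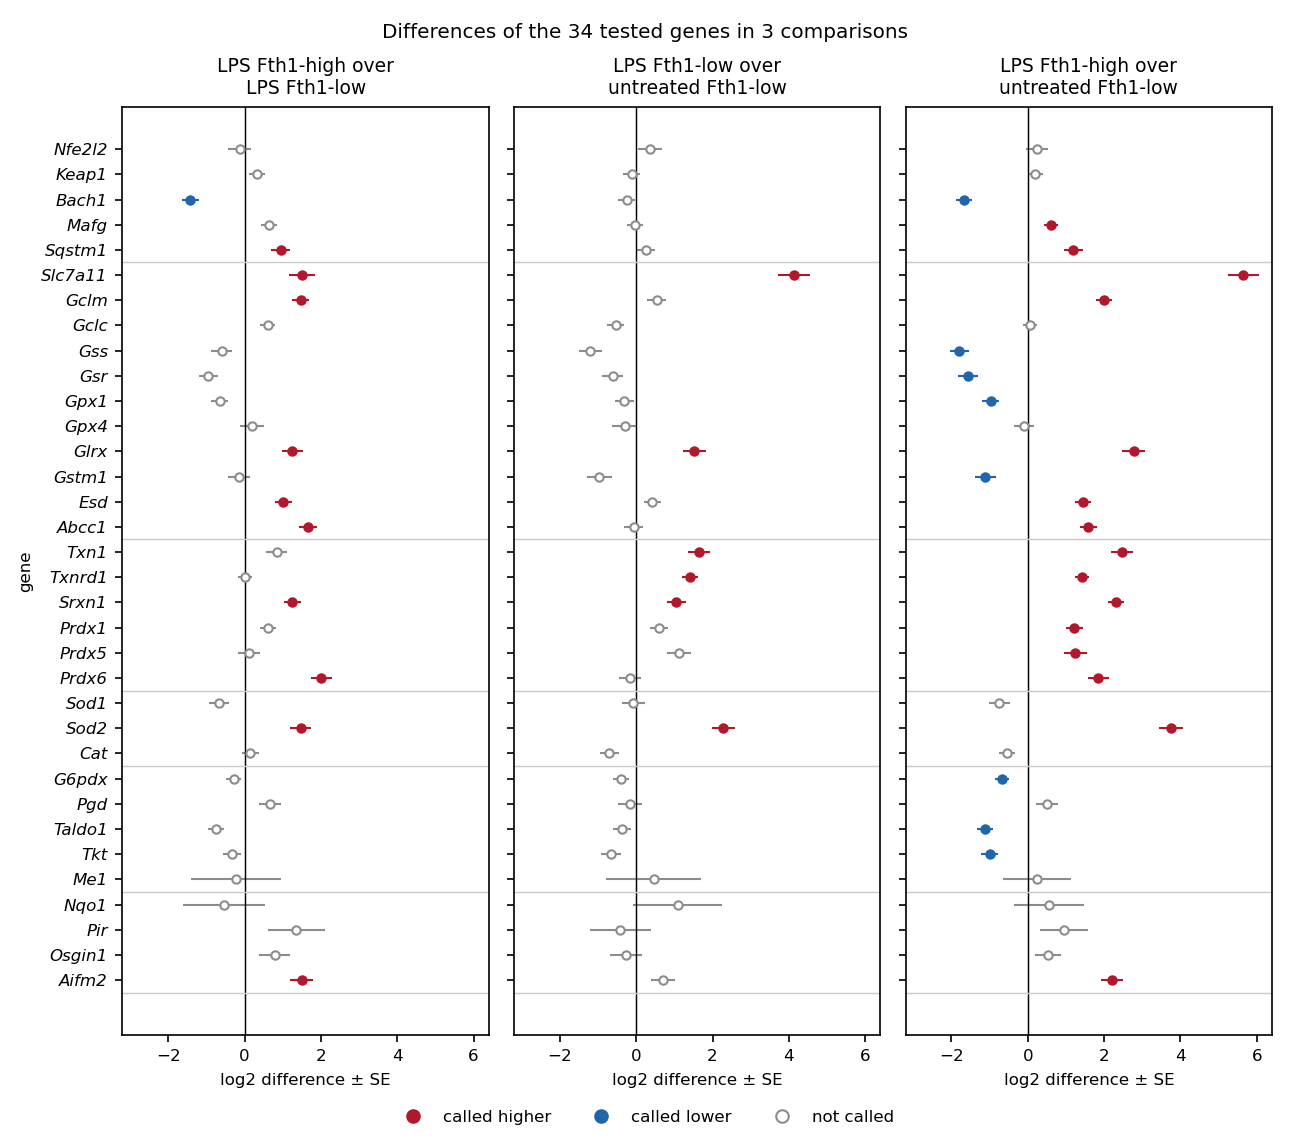
Log2 difference with its SE for the 34 tested genes in the 3 comparisons, with filled points for calls at adjusted p below 0.05. The widest difference shown is that of Slc7a11, 5.65 in LPS Fth1-high against untreated cells.

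Among the regulators, NRF2 mRNA itself was not called in any comparison. Nfe2l2 (chr2:75675513-75704641) measured 383, 405 and 489.6 CPM in LPS Fth1-high cells, 308 and 614 CPM in LPS Fth1-low cells and 319 and 404 CPM in untreated cells. The 3 groups overlapped. Keap1, whose product targets NRF2 for degradation, measured 53.1, 47.1 and 46.1 CPM in LPS Fth1-high cells, 30.1 and 43.5 CPM in LPS Fth1-low cells and 40.8 and 44.1 CPM in untreated cells. The LPS Fth1-high libraries were above the others, but the log2 difference from LPS Fth1-low cells (0.32 ± 0.21, adjusted p = 0.428) was not called. Bach1 (chr16:87698945-87733346), the repressor at antioxidant response elements, measured 144, 106 and 112 CPM in LPS Fth1-high cells, 311 and 332 CPM in LPS Fth1-low cells and 343 and 424 CPM in untreated cells. Its lowest libraries were all LPS Fth1-high. Bach1 fell 2.67-fold against LPS Fth1-low cells (log2 -1.42 ± 0.21, adjusted p = 0.00356) and 3.18-fold against untreated cells (log2 -1.67 ± 0.21, adjusted p = 0.000384), and both calls stood in every alternative run. LPS Fth1-low and untreated cells differed by -0.25 ± 0.23 (adjusted p = 0.738), which was not called. Mafg, a small MAF partner of both factors, measured 46.6, 50.1 and 39.2 CPM in LPS Fth1-high cells, 26.8 and 30.2 CPM in LPS Fth1-low cells and 30.9 and 28.9 CPM in untreated cells. The LPS Fth1-high libraries were above the others. It rose against untreated cells (log2 0.60 ± 0.18, adjusted p = 0.0422), a call lost without any 1 of the untreated or LPS Fth1-high libraries, with adjusted p from 0.0628 to 0.21, and with DESeq2 (0.0863), without a filter on low counts (0.0709) or after thinning (0.0762). Part of Mafg overlaps Sirt7 on the same strand. Sqstm1, which encodes p62, a KEAP1-binding autophagy adaptor, measured 619.9, 734 and 744 CPM in LPS Fth1-high cells, 281 and 438 CPM in LPS Fth1-low cells and 321 and 292 CPM in untreated cells. Every LPS Fth1-high library lay above all others. It rose against untreated cells (log2 1.19 ± 0.24, adjusted p = 0.00628, lost without Untreated 2 at 0.0744) and against LPS Fth1-low cells (log2 0.94 ± 0.24, adjusted p = 0.0437). The second call was lost without any 1 library other than Low 2, with adjusted p from 0.0565 to 0.148, in a fit of the 2 groups alone (0.0863) and without rRNA genes (0.0503).

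In glutathione supply, the cystine importer and the modifier subunit of the synthesis enzyme rose in LPS Fth1-high against untreated cells, while synthetase and reductase fell. Slc7a11 (chr3:49892526-50443614), the transport subunit of the cystine/glutamate exchanger, measured 109, 248 and 161 CPM in LPS Fth1-high cells, 56.9 and 62.7 CPM in LPS Fth1-low cells and 3.12 and 3.82 CPM in untreated cells. Every group lay clear of the next. It rose 50.2-fold in LPS Fth1-high against untreated cells (log2 5.65 ± 0.42, adjusted p = 1.85e-05), 17.6-fold in LPS Fth1-low against untreated cells (log2 4.14 ± 0.41, adjusted p = 0.000551) and 2.85-fold in LPS Fth1-high against LPS Fth1-low cells (log2 1.51 ± 0.34, adjusted p = 0.025). The last call was lost without Low 1 (0.13), Low 2 (0.121) or High 2 (0.0525), here and below as adjusted p, and with voom quality weights (0.0529). Gclm (chr3:122245557-122270732), the modifier subunit of glutamate-cysteine ligase, measured 33.4, 37.2 and 36.1 CPM in LPS Fth1-high cells, 15.1 and 12.2 CPM in LPS Fth1-low cells and 9.49 and 8.20 CPM in untreated cells. No LPS Fth1-high value overlapped the other groups, all of which were lower. It rose against untreated cells (log2 2.00 ± 0.20, adjusted p = 0.000114) and 2.77-fold against LPS Fth1-low cells (log2 1.47 ± 0.23, adjusted p = 0.00431), the second lost without Low 2 (0.0528) and after thinning all libraries to the depth of Low 1 (0.248). Low 1 held 9 Gclm counts, and the gene overlaps the pseudogene Gm6061 on its strand. Gclc, the catalytic subunit of the same ligase, measured 30.9, 31.3 and 26.9 CPM in LPS Fth1-high cells, 16.7 and 20.6 CPM in LPS Fth1-low cells and 27.2 and 29.6 CPM in untreated cells. It was not called in any comparison (log2 0.60 ± 0.21 against LPS Fth1-low cells, adjusted p = 0.124). Gss, glutathione synthetase, measured 11.1, 11.6 and 9.83 CPM in LPS Fth1-high cells, 15.1 and 16.9 CPM in LPS Fth1-low cells and 47.7 and 27.5 CPM in untreated cells. The LPS Fth1-high libraries were below all others. It fell 3.48-fold against untreated cells (log2 -1.80 ± 0.25, adjusted p = 0.000661). LPS Fth1-low cells also lay below untreated cells, at -1.20 ± 0.31, without a call (adjusted p = 0.0753), though it was called without a filter on low counts (0.0387).

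Among the genes that use or recycle glutathione, 3 rose in LPS Fth1-high against untreated cells and 3 fell. With the supply genes, 5 rose and 4 fell of 11 tested. Over all genes 12.4% were called higher and 11.9% lower in that comparison. Gsr (chr8:33652523-33698163), glutathione reductase, measured 218, 332 and 209.7 CPM in LPS Fth1-high cells, 422 and 549.8 CPM in LPS Fth1-low cells and 800.1 and 698 CPM in untreated cells. The groups lay apart in order. It fell 2.96-fold against untreated cells (log2 -1.56 ± 0.25, adjusted p = 0.00174), and the difference from LPS Fth1-low cells (-0.95 ± 0.26, adjusted p = 0.0528) sat beside the threshold. It was called in 7 alternatives, with adjusted p from 0.00162 with DESeq2 to 0.0463 without rRNA genes, leaving out High 2 (0.0299) among them. Gpx1, the main cytosolic glutathione peroxidase, measured 653, 832 and 875 CPM in LPS Fth1-high cells, 1237 and 1240.4 CPM in LPS Fth1-low cells and 1715 and 1361 CPM in untreated cells. The groups did not overlap. It fell against untreated cells (log2 -0.97 ± 0.22, adjusted p = 0.0122), a call lost without Untreated 1 (0.125). Against LPS Fth1-low cells it was not called (log2 -0.65 ± 0.23, adjusted p = 0.124), though it was with DESeq2 (0.0152). Gpx4, which reduces lipid peroxides and restrains ferroptosis, measured 24.4, 38.3 and 35.6 CPM in LPS Fth1-high cells, 40.2 and 23.7 CPM in LPS Fth1-low cells and 39.9 and 30.4 CPM in untreated cells. Its groups overlapped and it was not called. Reads of Gpx4 may be shared with the pseudogene Gpx4-ps2. Glrx (chr13:75839868-75850154), glutaredoxin, which removes glutathione from proteins, measured 288, 486 and 298 CPM in LPS Fth1-high cells, 132 and 165 CPM in LPS Fth1-low cells and 52.6 and 52.1 CPM in untreated cells. The 3 groups lay apart. It rose 6.82-fold in LPS Fth1-high against untreated cells (log2 2.77 ± 0.29, adjusted p = 0.000138), in LPS Fth1-low against untreated cells (log2 1.52 ± 0.30, adjusted p = 0.0225) and in LPS Fth1-high against LPS Fth1-low cells (log2 1.25 ± 0.28, adjusted p = 0.0223). The last was lost without Low 1 (0.124), Low 2 (0.0685) or High 2 (0.0656). The call of LPS Fth1-low against untreated cells was lost without Untreated 1 (0.161), Untreated 2 (0.172) or Low 2 (0.0949), and with voom quality weights (0.0613).

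Gstm1, a glutathione transferase, measured 44.3, 27.3 and 50.9 CPM in LPS Fth1-high cells, 50.2 and 42.4 CPM in LPS Fth1-low cells and 99.8 and 76.1 CPM in untreated cells. LPS and untreated libraries did not overlap. It fell in LPS Fth1-high against untreated cells (log2 -1.11 ± 0.27, adjusted p = 0.0141), lost without Untreated 1 (0.119) and after thinning (0.055). Abcc1 (chr16:14361558-14475737), an exporter of glutathione and its conjugates, measured 165, 155 and 139.5 CPM in LPS Fth1-high cells, 45.2 and 50.3 CPM in LPS Fth1-low cells and 41.7 and 60.2 CPM in untreated cells. The LPS Fth1-high libraries were far above the rest, which overlapped. It rose 3.16-fold against LPS Fth1-low cells (log2 1.66 ± 0.24, adjusted p = 0.0029) and 3.01-fold against untreated cells (log2 1.59 ± 0.22, adjusted p = 0.000725), and both calls stood in every alternative run. Esd, esterase D, which frees glutathione from its formaldehyde adduct, measured 229, 298 and 250.1 CPM in LPS Fth1-high cells, 124 and 131 CPM in LPS Fth1-low cells and 107 and 83.7 CPM in untreated cells. Its highest libraries were all LPS Fth1-high. It rose against untreated cells (log2 1.44 ± 0.21, adjusted p = 0.00105) and against LPS Fth1-low cells (log2 1.02 ± 0.22, adjusted p = 0.0192), the second lost without Low 1 (0.0717), Low 2 (0.0624), High 2 (0.0901) or High 3 (0.0581), and after thinning (0.0751). Reads of Esd may be shared with the pseudogene Esd-ps. Gsta3, another glutathione transferase, was not tested. It had 5, 2 and 5 counts in LPS Fth1-high libraries, 0 and 4 in LPS Fth1-low libraries and 24 and 1 in untreated libraries, and its highest count was in Untreated 1, the library with the most epithelial marker RNA.

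All 6 thioredoxin and peroxiredoxin genes among the 35 rose in LPS Fth1-high against untreated cells, where 12.4% of all genes were called higher. Of 16 other tested thioredoxin, glutaredoxin, peroxidase and methionine sulfoxide reductase genes, 0 were called higher and 3 lower in that comparison. Both lists were chosen with earlier results of these data known, so the contrast between them is no test. Txn1, thioredoxin, measured 352, 509.7 and 481 CPM in LPS Fth1-high cells, 298 and 209 CPM in LPS Fth1-low cells and 94.5 and 65.5 CPM in untreated cells. The 3 groups did not overlap. It rose 5.59-fold in LPS Fth1-high (log2 2.48 ± 0.29, adjusted p = 0.000249) and 3.13-fold in LPS Fth1-low cells (log2 1.64 ± 0.30, adjusted p = 0.0158), each against untreated cells. The second call was lost without Untreated 1 (0.0544), Untreated 2 (0.155) or Low 1 (0.0678). Against LPS Fth1-low cells LPS Fth1-high cells were not called (log2 0.84 ± 0.27, adjusted p = 0.103), though they were with DESeq2 (0.0323) and after thinning (0.0315). Txnrd1 (chr10:82833951-82897712), the reductase that recharges thioredoxin, measured 211, 192 and 195 CPM in LPS Fth1-high cells, 209 and 187 CPM in LPS Fth1-low cells and 67.3 and 81.8 CPM in untreated cells. Both LPS groups lay above untreated cells and overlapped each other. Against untreated cells it rose 2.68-fold in LPS Fth1-high (log2 1.42 ± 0.20, adjusted p = 0.000664) and 2.65-fold in LPS Fth1-low cells (log2 1.41 ± 0.21, adjusted p = 0.00574, lost without Untreated 1 at 0.0803). Between the gates the log2 difference was 0.01 ± 0.19, adjusted p = 0.982. Srxn1 (chr2:152105516-152111376), sulfiredoxin, which restores over-oxidised peroxiredoxins, measured 71.2, 63.6 and 62.9 CPM in LPS Fth1-high cells, 31.8 and 26.0 CPM in LPS Fth1-low cells and 15.3 and 11.2 CPM in untreated cells. The 3 groups lay apart. It rose 4.94-fold in LPS Fth1-high against untreated cells (log2 2.31 ± 0.22, adjusted p = 6.70e-05) and 2.38-fold against LPS Fth1-low cells (log2 1.25 ± 0.23, adjusted p = 0.00947, lost without Low 2 at 0.079). The rise in LPS Fth1-low against untreated cells (log2 1.06 ± 0.24, adjusted p = 0.0463) was lost when any 1 of the 7 libraries was left out, with adjusted p from 0.0668 to 0.291, and also by thinning, by voom weights and in a fit of the 2 groups alone (up to 0.158).

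Prdx6 (chr1:161240112-161251219), a peroxiredoxin that also acts on phospholipids, measured 531, 510.3 and 509 CPM in LPS Fth1-high cells, 92.1 and 157 CPM in LPS Fth1-low cells and 169.8 and 118 CPM in untreated cells. The LPS Fth1-high libraries lay far above all others, and the other groups overlapped. It rose 4.03-fold against LPS Fth1-low cells (log2 2.01 ± 0.28, adjusted p = 0.00268) and 3.59-fold against untreated cells (log2 1.84 ± 0.27, adjusted p = 0.00104), and both calls stood in every alternative run. Reads may be shared with the pseudogene Prdx6-ps2. Prdx1, an abundant cytosolic peroxiredoxin, measured 309, 303 and 352 CPM in LPS Fth1-high cells, 241 and 182 CPM in LPS Fth1-low cells and 151 and 124 CPM in untreated cells. The groups lay in that order without overlap. It rose against untreated cells (log2 1.22 ± 0.21, adjusted p = 0.00283) and was not called against LPS Fth1-low cells (log2 0.62 ± 0.21, adjusted p = 0.126). Prdx5, a mitochondrial, peroxisomal and cytosolic form, measured 934, 1635 and 1204 CPM in LPS Fth1-high cells, 1105 and 1208 CPM in LPS Fth1-low cells and 637 and 427 CPM in untreated cells. Both LPS groups were above untreated cells. It rose in LPS Fth1-high cells (log2 1.24 ± 0.30, adjusted p = 0.0143), lost without Untreated 2 (0.145). In LPS Fth1-low cells it was not called (log2 1.12 ± 0.32, adjusted p = 0.114), though it was with DESeq2 (0.00273) and after thinning (0.0127).

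**Figure D3:**
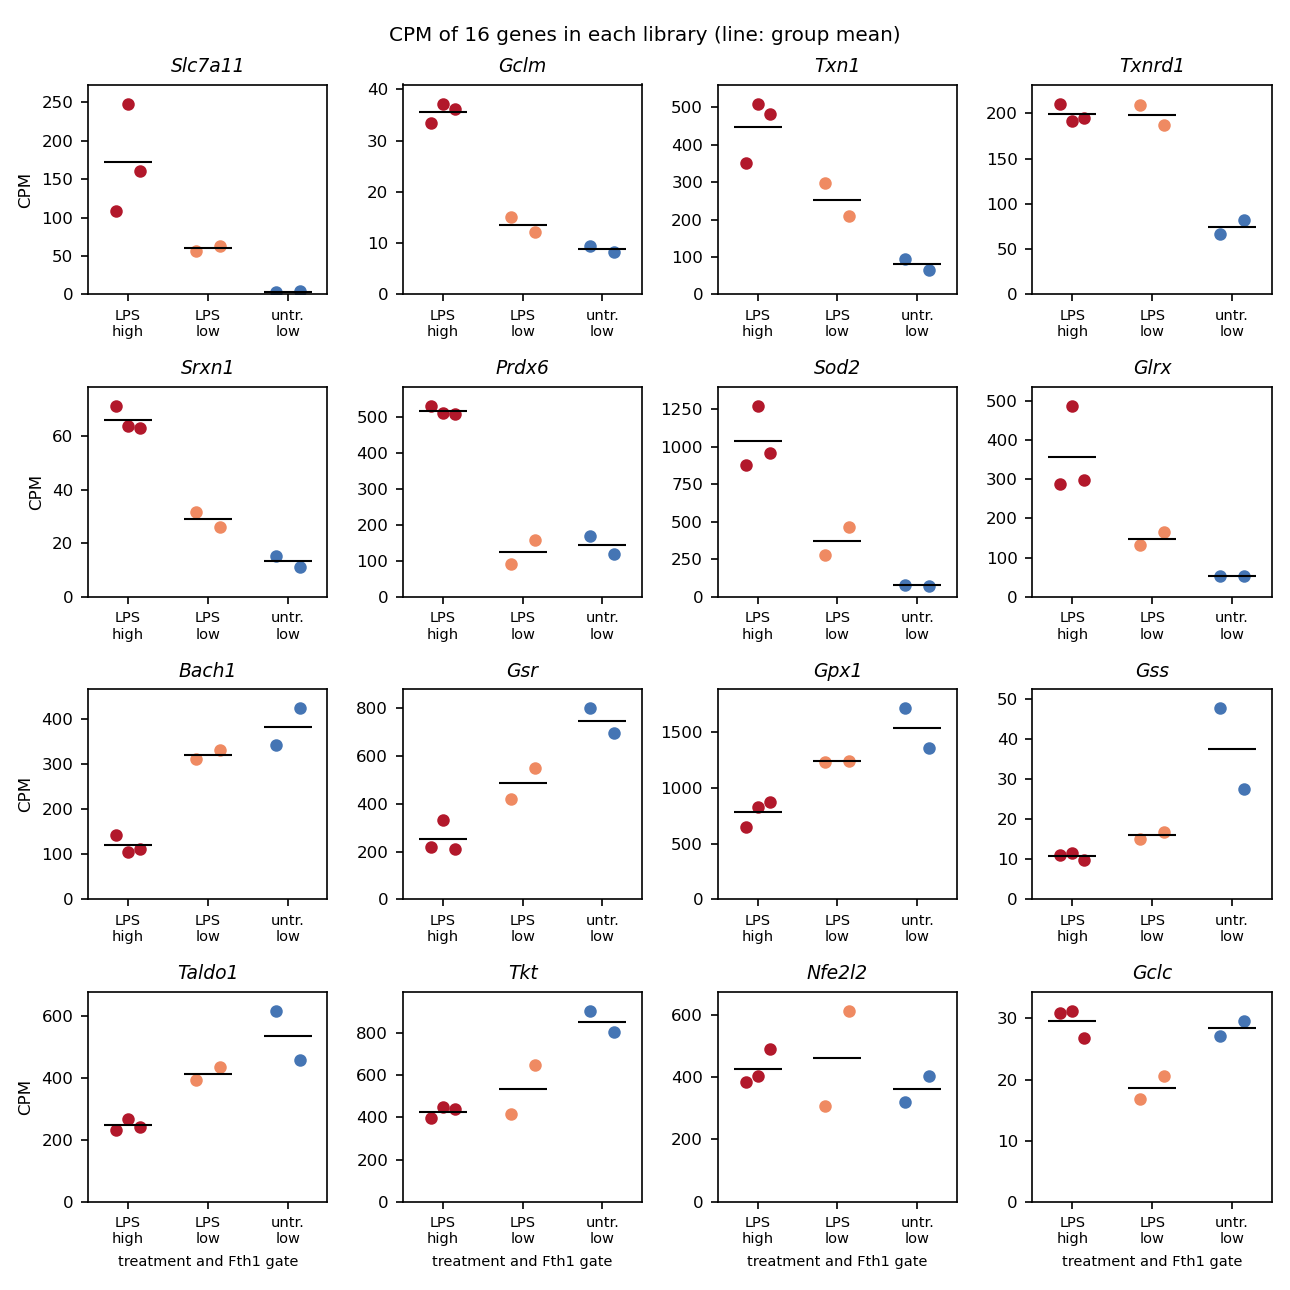
CPM of 16 genes in each library, a point per library, with LPS Fth1-high at the left, LPS Fth1-low in the middle and untreated cells at the right, on axes that start at 0. A line marks each group's mean. Prdx6 stands highest in LPS Fth1-high cells, with LPS Fth1-low and untreated libraries overlapping, while the Txnrd1 points of both LPS groups overlap.

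Of the superoxide dismutases and catalase, Sod2 rose in all 3 comparisons, and Sod1 and Cat were called in none. Sod2 (chr17:13006846-13040063), the mitochondrial manganese enzyme, measured 879, 1270.4 and 958 CPM in LPS Fth1-high cells, 279.6 and 462 CPM in LPS Fth1-low cells and 81.5 and 72.5 CPM in untreated cells. Every group lay clear of the next. It rose 13.4-fold in LPS Fth1-high against untreated cells (log2 3.75 ± 0.32, adjusted p = 3.84e-05), 4.87-fold in LPS Fth1-low against untreated cells (log2 2.28 ± 0.31, adjusted p = 0.00318) and 2.76-fold in LPS Fth1-high against LPS Fth1-low cells (log2 1.47 ± 0.28, adjusted p = 0.0124). The last was lost without Low 1 (0.0608) and the second without Untreated 2 (0.056). Sod1, the cytosolic copper-zinc enzyme, measured 61.1, 98.8 and 99.2 CPM in LPS Fth1-high cells, 137 and 138 CPM in LPS Fth1-low cells and 175 and 114 CPM in untreated cells. LPS Fth1-high libraries were the lowest, and their difference from untreated cells, -0.74 ± 0.27, was not called (adjusted p = 0.0714), though it was with DESeq2 (0.0344). Cat, catalase, measured 65.8, 67.2 and 74.3 CPM in LPS Fth1-high cells, 45.2 and 72.7 CPM in LPS Fth1-low cells and 103 and 99.7 CPM in untreated cells. It was not called (log2 -0.55 ± 0.21, adjusted p = 0.0874 in LPS Fth1-high against untreated cells), and that difference was called in 5 alternatives, from 0.0221 without Low 2 to 0.0453 with a mean of at least 10 CPM, leaving out Low 1 (0.0267) among them. LPS Fth1-low cells lay below untreated cells for Cat and were called lower without Low 2 (0.0493).

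Of the 5 NADPH supply genes among the 35, 0 rose and 3 fell in LPS Fth1-high against untreated cells. Over all genes 12.4% were called higher and 11.9% lower in that comparison. Of 8 other NADPH supply genes tested, 2 were called higher and 2 lower. G6pdx, the first enzyme of the pentose phosphate pathway, measured 197, 202 and 182 CPM in LPS Fth1-high cells, 201 and 264 CPM in LPS Fth1-low cells and 317 and 303 CPM in untreated cells. LPS Fth1-high and untreated libraries did not overlap. It fell against untreated cells (log2 -0.68 ± 0.19, adjusted p = 0.0289), a call lost without any 1 of the untreated or LPS Fth1-high libraries, with adjusted p from 0.0665 to 0.152. G6pdx lies on the X chromosome, and Xist differed between libraries. Taldo1 and Tkt, transaldolase and transketolase of the non-oxidative branch, both fell in LPS Fth1-high against untreated cells. Taldo1 measured 231, 268 and 242 CPM in LPS Fth1-high cells, 393 and 434 CPM in LPS Fth1-low cells and 617 and 457 CPM in untreated cells, and Tkt measured 395, 449 and 439.9 CPM in LPS Fth1-high cells, 419 and 652 CPM in LPS Fth1-low cells and 907 and 805 CPM in untreated cells. For both, the LPS Fth1-high libraries lay below the untreated ones. Against untreated cells the log2 difference was -1.12 ± 0.20, adjusted p = 0.00344 for Taldo1 and -0.999 ± 0.23, adjusted p = 0.0116 for Tkt, the second lost without Untreated 1 (0.0918) or Untreated 2 (0.0566). Against LPS Fth1-low cells Taldo1 was not called (log2 -0.75 ± 0.21, adjusted p = 0.0596), though it was in 4 alternatives, from 0.0034 with DESeq2 to 0.0396 with RLE scaling. Pgd, the second NADPH-producing enzyme of the pathway, ranged from 221 to 562 CPM without a call, and without Low 2 it was called higher in LPS Fth1-high than in LPS Fth1-low cells (0.0326). Me1, malic enzyme, was low at 0.466 to 5.02 CPM and was not called.

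Of the 4 remaining NRF2 targets, 1 was called, higher in LPS Fth1-high cells against both other groups. Over all genes 12.4% were called higher and 11.9% lower against untreated cells. Against LPS Fth1-low cells the shares were 3.68% and 4.57%. Aifm2, which encodes the ferroptosis suppressor FSP1, measured 51.7, 75.6 and 60.1 CPM in LPS Fth1-high cells, 18.4 and 23.5 CPM in LPS Fth1-low cells and 17.1 and 9.79 CPM in untreated cells. LPS Fth1-high cells stood above both other groups without overlap. It rose 4.60-fold against untreated cells (log2 2.20 ± 0.29, adjusted p = 0.000489) and 2.83-fold against LPS Fth1-low cells (adjusted p = 0.0158), the second lost without Low 1 (0.0735) or Low 2 (0.0902). Low 1 held 11 Aifm2 counts. Nqo1, a quinone reductase widely used as a readout of NRF2, had 29, 20 and 9 counts in LPS Fth1-high libraries, 2 and 18 in LPS Fth1-low libraries and 13 and 9 in untreated libraries. It was low in these cells and was not called, with wide errors (log2 0.55 ± 0.91, adjusted p = 0.704 in LPS Fth1-high against untreated cells, and log2 -0.54 ± 1.07, adjusted p = 0.834 against LPS Fth1-low cells). Pir and Osgin1, at up to 3.25 and 13.1 CPM, were not called.

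**Figure D4:**
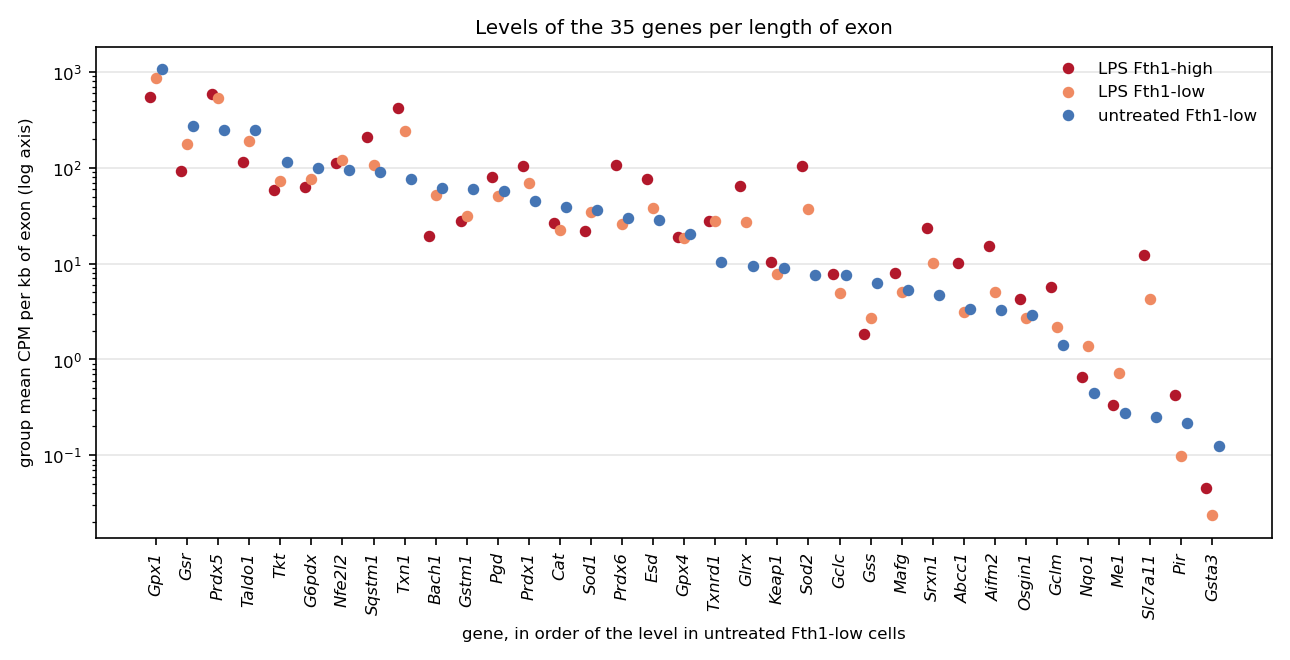
Mean level of the 35 genes in CPM per kilobase of exon on a log axis, for LPS Fth1-high, LPS Fth1-low and untreated cells. Prdx5, Gpx1 and Txn1 lead in LPS Fth1-high cells, and Gpx1, Gsr and Prdx5 lead in untreated cells.

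Levels were compared between genes only per kilobase of exon, with the length taken as the union of all annotated exons of a gene. That union can be longer than the transcript made in these cells, so the order between genes is approximate. In LPS Fth1-high cells the highest means were Prdx5 at 588, Gpx1 at 546, Txn1 at 426 and Sqstm1 at 208 CPM per kb. In LPS Fth1-low cells Gpx1 led at 859.7, with Prdx5 at 541 and Txn1 at 241 CPM per kb. In untreated cells Gpx1 led at 1067, with Gsr at 272, Prdx5 at 249 and Taldo1 at 247 CPM per kb.

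Of 73 other genes of the pathway, on a list also chosen with earlier results known, 66 were tested. LPS Fth1-high cells had 3 higher (4.55%) and 5 lower (7.58%) against LPS Fth1-low cells, where 3.68% and 4.57% of all genes were called. Against untreated cells they had 8 higher (12.1%) and 10 lower (15.2%), where 12.4% and 11.9% of all genes were called. LPS Fth1-low cells had 1 higher and 1 lower (1.52% each) against untreated cells, where 2.99% and 0.629% of all genes were called. These shares lie near those of all genes. Slc3a2, the heavy chain that carries SLC7A11 to the membrane, measured 397, 472 and 474 CPM in LPS Fth1-high cells, 182 and 259 CPM in LPS Fth1-low cells and 136 and 130.0 CPM in untreated cells. Its LPS Fth1-high libraries were above all others. It rose against untreated cells (log2 1.75 ± 0.23, adjusted p = 0.000467) and against LPS Fth1-low cells (log2 1.002 ± 0.22, adjusted p = 0.0226, lost without Untreated 2, Low 1, High 2 or High 3, at most 0.0892). Maff, a small MAF gene, measured 59.6, 61.1 and 77.4 CPM in LPS Fth1-high cells, 98.8 and 71.2 CPM in LPS Fth1-low cells and 14.8 and 16.2 CPM in untreated cells. Both LPS groups lay above untreated cells. It rose in LPS Fth1-low (log2 2.41 ± 0.25, adjusted p = 0.000683) and in LPS Fth1-high cells (log2 2.09 ± 0.23, adjusted p = 0.000172), each against untreated cells. Mafk, another small MAF gene, fell in LPS Fth1-high against untreated cells (log2 -1.06 ± 0.19, adjusted p = 0.00308) and against LPS Fth1-low cells (log2 -0.86 ± 0.20, adjusted p = 0.027, lost without Low 2 at 0.113, High 2 at 0.12 or High 3 at 0.115). Nfe2, an NRF2 relative, measured 6.57, 4.35 and 6.29 CPM in LPS Fth1-high cells, 40.2 and 60.1 CPM in LPS Fth1-low cells and 151 and 125 CPM in untreated cells. The 3 groups lay apart. It fell in LPS Fth1-high against LPS Fth1-low cells (log2 -3.21 ± 0.26, adjusted p = 0.000202) and against untreated cells (log2 -4.59 ± 0.26, adjusted p = 5.10e-06). Abcc3, an exporter of conjugates, measured 200.2, 179 and 160.3 CPM in LPS Fth1-high cells, 8.37 and 34.8 CPM in LPS Fth1-low cells and 10.2 and 4.29 CPM in untreated cells. Its LPS Fth1-high libraries lay far above the rest. It rose against LPS Fth1-low cells (log2 2.74 ± 0.48, adjusted p = 0.00853, and log2 4.43 without Low 2) and against untreated cells (log2 4.59 ± 0.50, adjusted p = 0.000213). LPS Fth1-low cells were not called against untreated cells for Abcc3 (log2 1.85 ± 0.49, adjusted p = 0.0945), but were without Low 1 (0.0343) and with DESeq2 (0.00346). H6pd, which makes NADPH in the endoplasmic reticulum, rose against both (log2 1.60 ± 0.27, adjusted p = 0.00681, and log2 1.43 ± 0.26, adjusted p = 0.0032). Me2 and Msra fell against untreated cells (log2 -1.30 ± 0.21, adjusted p = 0.00156, and log2 -1.20 ± 0.20, adjusted p = 0.00219, the second lost after thinning at 0.0644), and without Low 1 Me2 was also called lower against LPS Fth1-low cells (0.0293). Ggt5 and Gpx3 fell against LPS Fth1-low cells (log2 -1.80 ± 0.39, adjusted p = 0.0211, and log2 -1.68 ± 0.40, adjusted p = 0.0341), both lost without Low 2 (0.235 and 0.285) and without High 2 or High 3, and Gpx3 also without Low 1 or High 1. The call of Nfe2 in LPS Fth1-low against untreated cells (log2 -1.39 ± 0.28, adjusted p = 0.0249) was lost without Untreated 1 (0.155), Untreated 2 (0.0824) or Low 1 (0.107), and with voom quality weights (0.0619). Abcc2 was called lower in LPS Fth1-high cells on 1, 1 and 0 counts in LPS Fth1-high libraries, 0 and 19 in LPS Fth1-low libraries and 37 and 13 in untreated libraries, at or near the floor, and no fold is given. The call against LPS Fth1-low cells was lost without Untreated 1 (0.0989), Untreated 2 (0.0823), Low 1 (0.0534), Low 2 (0.914), High 2 (0.108) or High 3 (0.144).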

How the data were processed

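Polyadenylated RNA of sorted lung myeloid cells was made into 7 stranded libraries from 25 ng of RNA each with 15 PCR cycles and read as pairs of 58 bp, per the labels' protocols. The deposited values are whole-number counts per gene and library. The submitters' processing notes name DRAGEN, DESeq2 and mm10, and the sources used here give no version, annotation or counted strand. The table held 26130 genes, 6880 without a count.

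The differences were computed with edgeR 4.0.16 under R 4.3.3. Genes passing filterByExpr (13665) were scaled by TMM and fitted with 1 robust quasi-likelihood model of the 3 groups over all 7 libraries (residual df 4, median prior df 5.38). The 3 differences were tested two-sided, and an adjusted p below 0.05 (Benjamini-Hochberg over all genes tested) made a call. Errors are standard errors, the log2 difference over the square root of F. Levels in CPM are relative to library sizes scaled by TMM. The genes and lists, and the parts of the naming rule, were chosen with earlier results of these data known. Values of every library are given for each of the 35 genes called in a comparison, for the regulators and for a fixed set of peroxidases and dismutases, and the others by range. Of the other pathway genes called, up to 8 per comparison by smallest adjusted p are named. Gene positions and exon lengths (the union of all annotated exons of a gene) came from GENCODE vM21 (GRCm38), and promoters from RefSeq (GRCm38.p6). Of the 35 genes, 8 overlap an exon of a gene on the opposite strand, and 4 have named pseudogene copies, so their counts may hold reads of the other gene.

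Counts of 13665 genes were simulated in a single run per comparison. In each run 100 genes were changed at each size, drawn from genes of higher count. Changes of log2 2 were recovered for 71% of changed genes in LPS Fth1-high against LPS Fth1-low. They were recovered for 75% in LPS Fth1-low against untreated and 86% in LPS Fth1-high against untreated. Changes of log2 1 were recovered for 15%, 10% and 26% in the same order. Of the genes called in the simulation, 14.9%, 7.61% and 9.68% were false calls, in the same order. How far these shares vary between runs was not estimated. Each share lay above the nominal rate set by the threshold on adjusted p, most so in LPS Fth1-high against LPS Fth1-low. The calls above may thus hold more false ones than that threshold implies. Alternatives were RLE scaling, DESeq2 1.42.0, limma 3.58.1 voom with quality weights, 2 filters, a fit of the 2 groups compared, a replicate block, rRNA genes left out, thinning to 637787 counts and leaving out each library.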

Additional observations from a re-analysis of the deposited data

How the results depend on the processing

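Of 40 called results of the 35 genes, 20 kept the call under every alternative and 20 lost it under at least 1, while 10 uncalled results were called under at least 1, and none of the called results changed sign. Leaving out 1 library moved the counts of these genes called to 4 to 9 higher and 1 to 2 lower in LPS Fth1-high against LPS Fth1-low cells, to 2 to 5 higher and 0 to 1 lower in LPS Fth1-low against untreated cells, and to 12 to 15 higher and 4 to 9 lower in LPS Fth1-high against untreated cells. Over all genes the ranges were 263 to 682 higher and 379 to 602 lower, 179 to 386 higher and 11 to 249 lower, and 955 to 2184 higher and 948 to 2012 lower, in the same order. In LPS Fth1-high against LPS Fth1-low cells, the lower calls among these genes numbered 3 with RLE scaling, 4 with DESeq2, 2 without a filter, 3 with a mean of at least 10 CPM, 2 without rRNA genes and 3 after thinning. In LPS Fth1-low against untreated cells, 1 gene was called lower without a filter, all genes called higher numbered 632 with DESeq2, and all genes called lower numbered 192 with DESeq2, 47 with voom quality weights and 165 with the replicate block. In LPS Fth1-high against untreated cells, thinning gave 1028 higher and 955 lower calls over all genes. Replicate numbers are shared between groups, but the labels do not say what they mark. Deviations from group means were correlated between same-numbered libraries. The values were 0.271 and 0.0880 for LPS Fth1-high with LPS Fth1-low. They were -0.0373 for both numbers (LPS Fth1-low with untreated) and 0.102 and 0.290 (LPS Fth1-high with untreated). Deviations in a group of 2 libraries are mirror images, so these values cannot show whether same-numbered libraries were paired. High 2 and Low 2 differed in Xist (1.95 and 176 CPM) and Ddx3y (68.8 and 37.2 CPM). Those libraries thus did not hold the same mix of male and female cells. Among the 35 genes the replicate block lost 3 calls. These were Mafg (0.105) and G6pdx (0.134) in LPS Fth1-high against untreated cells and Sqstm1 (0.053) in LPS Fth1-high against LPS Fth1-low cells. It gained 2, Sod1 (0.0403) in LPS Fth1-high and Prdx5 (0.0316) in LPS Fth1-low cells, each against untreated cells, all as adjusted p. Of the other genes named, it lost Ggt5 (0.0959), Mafk (0.0997) and Abcc2 (0.0994) in LPS Fth1-high against LPS Fth1-low cells. In that comparison Gpx3 was also lost with voom quality weights (0.073) and after thinning (0.214), and Abcc2 with DESeq2 (0.15). Abcc2, at or near 0 in LPS Fth1-high cells, ranged from -5.01 without LPS Fth1-high replicate 1 to a reversed 2.40 (log2, adjusted p = 0.914) in LPS Fth1-high against LPS Fth1-low cells without LPS Fth1-low replicate 2. The cause of these changes was not tested. Depth limits the genes of low count, Nqo1, Me1, Pir and Gsta3 among them, and everything that rests on LPS Fth1-low replicate 1.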

Other observations

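Ratios of levels per kilobase of exon within a library, chosen after their values were seen and so given with no test, set LPS Fth1-high libraries apart from the others for 3 pairs. The ratio of Gclm to Gclc, the modifier and catalytic subunits of the same ligase, was 0.648, 0.713 and 0.804 in LPS Fth1-high libraries, 0.539 and 0.355 in LPS Fth1-low libraries and 0.209 and 0.166 in untreated libraries. The ratio of Sod2 to Sod1 was 5.71, 5.10 and 3.83 in LPS Fth1-high libraries, 0.808 and 1.33 in LPS Fth1-low libraries and 0.185 and 0.252 in untreated libraries. The ratio of Prdx6 to Gpx1 was 0.244, 0.184 and 0.175 in LPS Fth1-high libraries, 0.0223 and 0.0379 in LPS Fth1-low libraries and 0.0297 and 0.0260 in untreated libraries. LPS Fth1-low and untreated libraries overlapped in the third ratio and lay apart in the first and second. The size of each ratio depends on the exon lengths used, while its order across libraries does not.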
